A study of Mus musculus with 22 samples.

Results

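The thick ascending limb is the nephron segment that takes up sodium chloride without water, and 6 genes of this segment were followed through the series: Slc12a1, Kcnj1, Cldn10, Cldn16, Umod and Egf. They are textbook products of thick ascending limb cells and were picked by name, with earlier results of these data known. They are 6 of the 16556 genes in the count table. All 6 had enough reads to be tested, among 15064 genes tested. Messenger RNA was measured by 3′ tag sequencing, which reads each polyadenylated transcript near its 3′ end, in 22 libraries of mouse kidney cortex. The study deleted carnitine acetyltransferase (gene Crat), which exchanges acetyl groups of coenzyme A with carnitine, in proximal tubular cells, using floxed alleles and a Cre recombinase under the Ggt promoter. The 6 genes therefore belong to a segment at which, per the study's design text, this Cre was not aimed.

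All animals were male C57BL/6J mice. At 12 months, with LFD in the sample title, there were 3 Pt-CrAT libraries (Cre promoter Ggt) and 3 fl/fl libraries (no Cre promoter given, Wt in the title). At 15 months, with chow in the title, there were 3 libraries labelled Pt-CrAT and 3 labelled fl/fl. At 24 months, also with chow in the title, there were 5 Pt-CrAT and 5 fl/fl libraries. The labels do not spell out LFD, and it changes together with age, so levels at 12 months were not tested against those at the older ages. The genotype differences were compared among the 3 settings, where age and the diet word cannot be told apart. Litters, cages and days are not recorded in the labels, so p-values measure only the spread between these samples. A bulk measurement cannot tell fewer thick ascending limb cells in the piece of cortex from less RNA per cell.

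In thick ascending limb cells, the sodium-potassium-chloride cotransporter NKCC2, encoded by Slc12a1, brings salt in from the tubule fluid, and the potassium channel ROMK, encoded by Kcnj1, returns potassium to that fluid so that the cotransporter can go on working. The voltage this creates drives sodium, calcium and magnesium between the cells through pores made of claudins: claudin-10, in the form known from this segment, is selective for sodium, and claudin-16 serves calcium and magnesium. Umod encodes uromodulin, the most abundant protein of normal urine, and Egf encodes the precursor of epidermal growth factor, which acts on magnesium uptake in the distal convoluted tubule and on tubule repair. Cldn10 is also transcribed in the proximal tubule, from another first exon, and Egf is also made in the early distal convoluted tubule. These are examples and not a full list. The Kcnj1 reads of bulk cortex cannot be assigned to the thick ascending limb alone either, so changes of Kcnj1 are not tied to that segment.

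On GRCm38 (GENCODE M21), all 6 are protein-coding genes. Slc12a1 (ENSMUSG00000027202) lies on chromosome 2 from 125152505 to 125230002, Kcnj1 (ENSMUSG00000041248) on chromosome 9 from 32372493 to 32399197, Cldn10 (ENSMUSG00000022132) on chromosome 14 from 118787908 to 118875489 and Cldn16 (ENSMUSG00000038148) on chromosome 16 from 26463135 to 26482765, each on the plus strand. Umod (ENSMUSG00000030963) lies on chromosome 7 from 119462711 to 119479282 and Egf (ENSMUSG00000028017) on chromosome 3 from 129677565 to 129755316, both on the minus strand. The 3 protein-coding transcripts of Cldn10 begin in exons at 118787908, 118787918 and 118854732 and share the last exon from 118874192, so tags near the 3′ end cannot separate the proximal tubule form from the thick ascending limb form. Annotated antisense genes lie across parts of Umod, Slc12a1 and Egf. Those antisense genes have no row of their own in the table, and whether the counting used strand is not stated, so reads from them cannot be told apart.

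The 250 bases before the RefSeq start are shown for Kcnj1, Cldn10 and Egf, which fell together at 12 months, and for Umod, the segment's best known product, which did not pass. The sequences are from RefSeq, on build GRCm38.p6, and are written along the strand of each gene. Capitals would mark TATAAA or its reverse complement TTTATA, the letters of the TATA box at which transcription of many tissue-specific genes is set up; both strands were searched. The Kcnj1 window is chr9:32393735-32393984 on the plus strand, in front of 1 of the 3 annotated first exons. The Cldn10 window is chr14:118787621-118787870 on the plus strand, in front of the upstream first exon. A further Cldn10 window, chr14:118854700-118854949 near the downstream first exon, is not shown. Which of these starts is used in the thick ascending limb was not determined. The Egf window is chr3:129755323-129755572 and the Umod window chr7:119479263-119479512, both on the minus strand.
Kcnj1: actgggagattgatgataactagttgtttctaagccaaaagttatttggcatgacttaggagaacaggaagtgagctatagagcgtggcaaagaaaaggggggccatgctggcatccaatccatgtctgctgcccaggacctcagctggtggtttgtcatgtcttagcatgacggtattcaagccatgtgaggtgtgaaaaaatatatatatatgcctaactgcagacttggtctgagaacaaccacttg
Cldn10: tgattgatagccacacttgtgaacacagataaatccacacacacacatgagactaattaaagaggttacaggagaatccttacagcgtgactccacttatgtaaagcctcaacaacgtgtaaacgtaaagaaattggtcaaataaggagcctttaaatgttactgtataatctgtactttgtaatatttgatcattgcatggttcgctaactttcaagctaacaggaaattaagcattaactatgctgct
Egf: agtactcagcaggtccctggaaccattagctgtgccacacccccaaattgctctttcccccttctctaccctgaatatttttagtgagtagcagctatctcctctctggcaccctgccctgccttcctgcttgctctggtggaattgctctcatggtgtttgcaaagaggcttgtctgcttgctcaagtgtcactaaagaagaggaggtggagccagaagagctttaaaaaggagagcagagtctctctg
Umod: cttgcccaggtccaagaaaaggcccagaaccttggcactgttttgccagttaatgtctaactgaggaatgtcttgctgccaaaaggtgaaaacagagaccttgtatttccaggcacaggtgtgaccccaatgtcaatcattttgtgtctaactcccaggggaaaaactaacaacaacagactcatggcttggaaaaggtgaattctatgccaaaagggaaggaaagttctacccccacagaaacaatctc

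RefSeq gave 8 such windows for the 6 genes, and 0 of the 8 held the motif, so all letters are in lower case. Of all 32851 RefSeq windows of this length, 12.4% held it. A window without a match says only that these letters are not in it.

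Library totals ran from 12175804 to 17447367 counts, except 53157575 in CrAT12MLFD345. All 6 genes were read in all 22 libraries, with at least 57 counts (Cldn16) and up to 79966 counts (Slc12a1), and 20 of 21 further thick ascending limb genes were in the table, so markers of the segment were read throughout. Values are given as CPM, a gene's reads relative to all reads of its library after TMM scaling. Levels of different genes are not set against each other as amounts of messenger RNA. Crat, the targeted gene, had 42.4 to 81.1 CPM in Pt-CrAT libraries and 54.0 to 98.0 CPM in fl/fl libraries at 12 months. At 24 months it had 28.4 to 38.9 CPM in Pt-CrAT and 43.5 to 111.5 CPM in fl/fl libraries. At 15 months the order went against the labels, with 63.1 to 72.6 CPM in libraries labelled Pt-CrAT and 34.3 to 60.0 CPM in libraries labelled fl/fl, so directions that rest on the 15-month libraries are tied to those labels. The labels do not name the deleted exons, so a 3′ tag may lie outside the deleted part. Libraries CrAT24Mchow123 and CrAT24Mchow136 stood apart from the other 24-month libraries in Kap, an androgen-driven proximal tubule gene, with 4565.5 and 2853 CPM, against at least 18928 CPM in the other Pt-CrAT libraries and at least 24284 CPM in fl/fl libraries.

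At 12 months, 3 of the 6 genes fell in Pt-CrAT kidneys relative to fl/fl kidneys: Kcnj1, Cldn10 and Egf. Cldn16 was also lower in every Pt-CrAT library but did not pass the test, and Umod and Slc12a1 overlapped between genotypes. Of all genes tested, 7.95% were called lower in this comparison, 8.41% higher and 16.4% in either direction by edgeR's quasi-likelihood test at an adjusted p under 0.05. Pt-CrAT libraries lay wholly below fl/fl libraries for 4 of the 6 genes, as they did for 13.8% of all genes, and 30.1% of all genes had groups that did not overlap in either direction. The median log2 fold change was -0.56 over the 6 genes and 0.00162 over all genes.

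**Figure D1:**
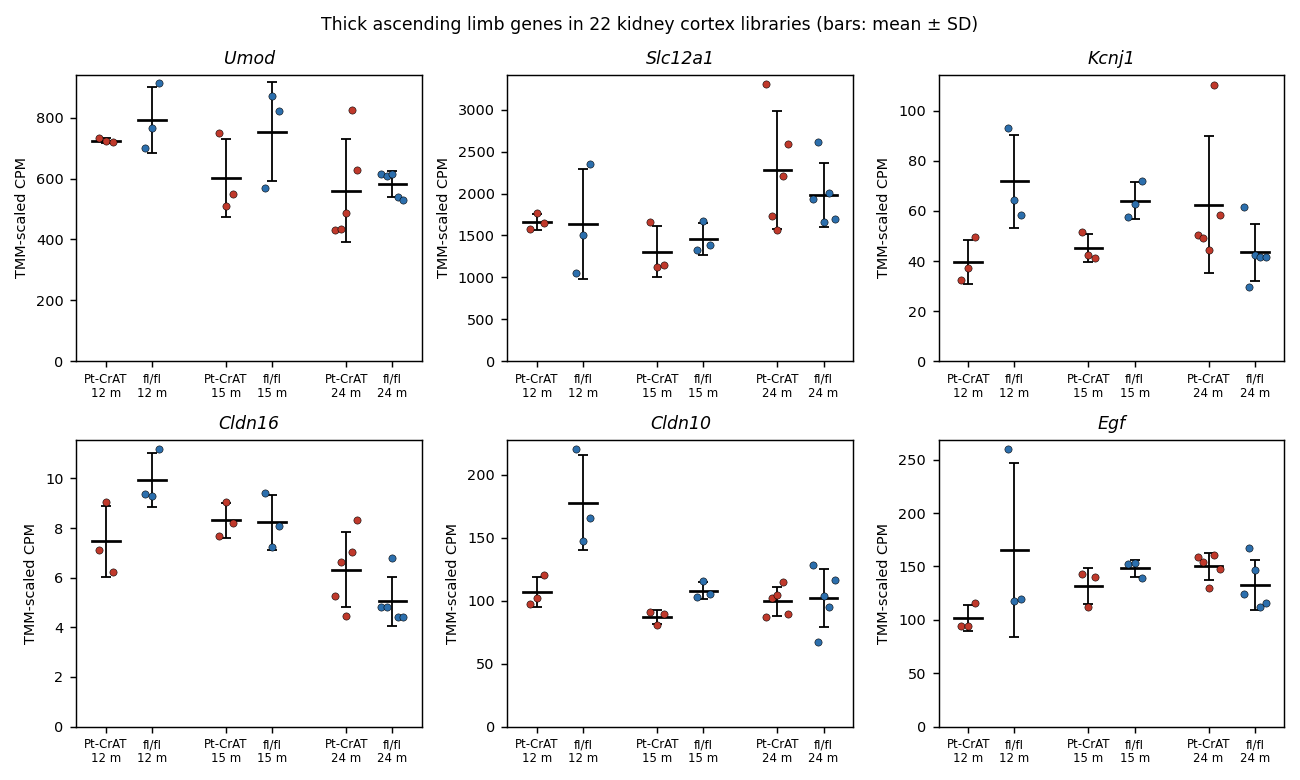
TMM-scaled CPM of the 6 thick ascending limb genes in each of the 22 libraries, by genotype and age; points are libraries, red for Pt-CrAT and blue for fl/fl, and bars give the mean ± SD. At 12 months the Pt-CrAT points lie below all fl/fl points for Kcnj1, Cldn16, Cldn10 and Egf, and at 24 months the Slc12a1 points reach 3303 CPM in Pt-CrAT and 2612 CPM in fl/fl.

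Kcnj1, the ROMK channel, had 32.4, 37.3 and 49.5 CPM in Pt-CrAT libraries at 12 months, against 93.1, 64.3 and 58.2 CPM in fl/fl libraries. The groups did not overlap, and the log2 fold change was -0.85 ± 0.28 (SE, n = 3 each; edgeR adjusted p = 0.0454). Cldn10 had 97.5, 102.4 and 120.3 CPM in Pt-CrAT libraries, against 220.2, 147.7 and 166.0 CPM in fl/fl libraries. It fell by 40% with a log2 fold change of -0.74 ± 0.18 (SE; edgeR adjusted p = 0.0145), the smallest adjusted p of the 6 genes in any comparison. Egf had 94.4, 94.5 and 116 CPM in Pt-CrAT libraries, against 259.7, 117.6 and 119 CPM in fl/fl libraries. These groups also did not overlap, but Pt-CrAT library CrAT12MLFD345 lay close to the lower pair of fl/fl libraries, and the log2 fold change was -0.70 ± 0.22 (SE; edgeR adjusted p = 0.0344).

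Cldn16, the calcium and magnesium pore of the segment, had 7.12, 9.04 and 6.23 CPM in Pt-CrAT libraries and 9.35, 9.28 and 11.2 CPM in fl/fl libraries at 12 months, a log2 fold change of -0.43 ± 0.22 (SE; edgeR adjusted p = 0.171). Umod had 734, 722 and 718 CPM in Pt-CrAT libraries and 702, 764 and 913 CPM in fl/fl libraries, with a log2 fold change of -0.13 ± 0.21 (SE; edgeR adjusted p = 0.705). Its Pt-CrAT libraries lay close to each other and inside the fl/fl range. Slc12a1 had 1577, 1762 and 1649.8 CPM in Pt-CrAT libraries and 1056, 1501 and 2347 CPM in fl/fl libraries, with a log2 fold change of 0.02 ± 0.26 (SE; edgeR adjusted p = 0.962). In fl/fl, Wt12MLFD326 was the lowest of its group for Umod and Slc12a1 and the highest for Kcnj1, Cldn10 and Egf.

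The 3 calls at 12 months rested on few libraries. Without Wt12MLFD326 the log2 fold change was -0.55 for Cldn10 (edgeR adjusted p = 0.0947), -0.62 for Kcnj1 (0.265) and -0.22 for Egf (0.469). None of the 3 passed without CrAT12MLFD328 (adjusted p = 0.106 for Cldn10, 0.206 for Kcnj1 and 0.159 for Egf) or without CrAT12MLFD337 (0.0725, 0.155 and 0.136 in the same order), and Kcnj1 did not pass without Wt12MLFD327 (0.0509). In a fit of the 6 libraries of this age alone, the fold changes were of the same size and the adjusted p-values were 0.158 for Cldn10, 0.158 for Kcnj1 and 0.198 for Egf. An exact two-sided permutation test of 3 against 3 libraries cannot go below p = 0.1, which is the value all 4 genes with separate groups reached.

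Markers of fat cells moved with this comparison: 5 of 5 adipocyte genes tested rose in Pt-CrAT libraries, with a summed level of 46.1 to 167 CPM in Pt-CrAT and 3.36 to 9.08 CPM in fl/fl libraries. Of the 6 adipocyte genes in the table, Lep had no read in 9 of 22 libraries. Among 16 proximal tubule genes, Ggt1, encoding gamma-glutamyltransferase, rose and 4 fell, among them Slc7a8, Lrp2 and Gatm with log2 fold changes of -1.88, -1.13 and -1.37. None of the 16 fell when Wt12MLFD326, CrAT12MLFD328 or CrAT12MLFD337 was left out, and Ggt1 did not pass without Wt12MLFD326 or CrAT12MLFD328. Of 12 collecting duct genes 2 fell, Hsd11b2 and Scnn1g (-0.86 and -0.80, edgeR adjusted p = 0.00551 and 0.0425). Of 5 endothelial genes 1 fell, Cdh5 (-1.28, adjusted p = 0.011), and of 6 tubular injury genes tested 1 fell, Spp1 (-0.74, adjusted p = 0.0285). None of 7 macrophage genes passed. Summed thin limb and inner medulla genes had 44.5, 57.8 and 86.5 CPM in Pt-CrAT libraries, against 88.0, 90.6 and 104 CPM in fl/fl libraries. These sums did not overlap either, but came as close as 86.5 and 88.0 CPM, and none of the 5 genes tested passed. Of all genes, 30.1% had groups that did not overlap in this comparison. The part of these markers in the results for Kcnj1, Cldn10 and Egf was not tested.

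At 15 months none of the 6 genes passed between libraries labelled Pt-CrAT and libraries labelled fl/fl, and neither did any other gene (0% of 15064; edgeR). In edgeR 1249 genes had an unadjusted p under 0.05, and the smallest adjusted p of any gene was 0.581. At an adjusted p under 0.05, DESeq2 called 0 genes, and edgeR called 4 in a fit of these 6 libraries alone. Kcnj1 had 51.5, 42.2 and 41.3 CPM in libraries labelled Pt-CrAT and 57.5, 62.8 and 72.0 CPM in libraries labelled fl/fl, with no overlap and a log2 fold change of -0.51 ± 0.28 (SE; edgeR adjusted p = 0.581). Cldn10 had 90.9, 80.4 and 89.9 CPM in libraries labelled Pt-CrAT and 102.7, 116 and 105.5 CPM in libraries labelled fl/fl, again without overlap, with a log2 fold change of -0.31 ± 0.18 (SE; edgeR adjusted p = 0.581). These 2 of 6 genes lay wholly below in the libraries labelled Pt-CrAT, as did 12.7% of all genes.

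Egf had 142.8, 112 and 140.4 CPM in 15-month libraries labelled Pt-CrAT and 152.4, 153 and 138.9 CPM in libraries labelled fl/fl. Umod had 748, 509 and 548 CPM in libraries labelled Pt-CrAT and 570.0, 870.0 and 822 CPM in libraries labelled fl/fl. Slc12a1 had 1656, 1121 and 1145 CPM in libraries labelled Pt-CrAT and 1324, 1675 and 1382 CPM in libraries labelled fl/fl. In each genotype the same library was highest for both Umod and Slc12a1, CrAT15Mchow183 and Wt15Mchow225. The groups of Egf, Umod and Slc12a1 overlapped, with log2 fold changes of -0.17, -0.33 and -0.16. Cldn16 was close to level, with 7.68, 9.06 and 8.21 CPM in libraries labelled Pt-CrAT and 9.41, 7.22 and 8.07 CPM in libraries labelled fl/fl, a log2 fold change of 0.02 ± 0.22 (SE).

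At 24 months, with 5 libraries in each genotype, none of the 6 genes passed, and edgeR again called no gene (0% of 15064). In edgeR 1409 genes had an unadjusted p under 0.05, and the smallest adjusted p of any gene was 0.0771. At an adjusted p under 0.05, DESeq2 called 15 genes, none of them among the 6. The groups overlapped for all 6 genes, while 1.53% of all genes had groups that did not overlap, 0.737% with Pt-CrAT higher and 0.797% with it lower. The median log2 fold change was 0.19 over the 6 genes and 0.02 over all genes.

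Kcnj1 had 50.5, 49.3, 44.2, 110.4 and 58.2 CPM in Pt-CrAT libraries at 24 months, against 61.6, 29.7, 42.4, 41.8 and 41.8 CPM in fl/fl libraries. Library CrAT24Mchow136 held more than any other library of the series, and the log2 fold change of 0.52 ± 0.22 (SE, n = 5 each; edgeR adjusted p = 0.475) was 0.21 without it. Slc12a1 had 3303, 1734, 1564, 2209.9 and 2593 CPM in Pt-CrAT libraries and 1934, 2612, 1657, 2012 and 1695 CPM in fl/fl libraries, a log2 fold change of 0.20 ± 0.20 (SE; edgeR adjusted p = 0.743). The fl/fl libraries lay inside the range of the Pt-CrAT libraries, and the highest value was that of CrAT24Mchow123. Cldn16 had 5.24, 6.61, 4.45, 7.02 and 8.31 CPM in Pt-CrAT libraries and 4.82, 4.82, 6.79, 4.40 and 4.43 CPM in fl/fl libraries, with a log2 fold change of 0.32 ± 0.18 (SE; edgeR adjusted p = 0.558).

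The remaining 3 genes differed least at this age. Cldn10 had 87.0, 102, 104.8, 114.6 and 89.2 CPM in Pt-CrAT libraries and 128, 67.0, 104, 95.4 and 116.9 CPM in fl/fl libraries, with the Pt-CrAT values inside the fl/fl range and a log2 fold change of -0.04 ± 0.14 (SE). Egf had 158.9, 153.9, 129.4, 160.3 and 148 CPM in Pt-CrAT libraries and 123.9, 167.2, 146.2, 111.6 and 115.3 CPM in fl/fl libraries, with a log2 fold change of 0.18 ± 0.17 (SE). Umod had 432, 434, 485, 826 and 627 CPM in Pt-CrAT libraries and 616, 608, 614, 539 and 531 CPM in fl/fl libraries. Its mean was 561 ± 168.3 CPM in Pt-CrAT and 582 ± 42.7 CPM in fl/fl (SD, n = 5 each), so the spread in Pt-CrAT was the wider, and CrAT24Mchow136 was again the highest.

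Whether the genotype difference varied among the 3 settings was tested directly. It did for Kcnj1 (edgeR, 2 degrees of freedom, adjusted p = 0.0438). The log2 fold change of Kcnj1 between genotypes was -0.85 at 12 months, -0.51 at 15 months and 0.52 at 24 months. Of all genes, 5.07% passed this test. The 12-month setting differs from the others in both age and the diet word, which the test cannot tell apart. The 15-month difference is tied to labels that the Crat levels went against. The Kcnj1 call was lost without CrAT12MLFD328 and Wt12MLFD326, the lowest Pt-CrAT and the highest fl/fl library of Kcnj1 at 12 months (adjusted p = 0.187), and without CrAT24Mchow123 and CrAT24Mchow136, the pair low in Kap (0.0806). It was also lost in 13 of 22 fits with 1 library left out, over which the adjusted p ran from 0.0184 without Wt24Mchow145 to 0.129 without CrAT12MLFD328. The other genes did not pass, at adjusted p-values of 0.0946 for Egf, 0.11 for Cldn10, 0.159 for Cldn16, 0.691 for Slc12a1 and 0.722 for Umod.

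Averaged over the settings, none of the 6 genes passed in edgeR, where 0.0266% of all genes did. Cldn10 came nearest, with a mean log2 fold change of -0.36 ± 0.10 (SE; edgeR adjusted p = 0.124), and passed in DESeq2 (-0.37, adjusted p = 0.0294) and in edgeR without Wt24Mchow154 (adjusted p = 0.0288). The mean and the variation among settings use the same libraries as the differences at each age.

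**Figure D2:**
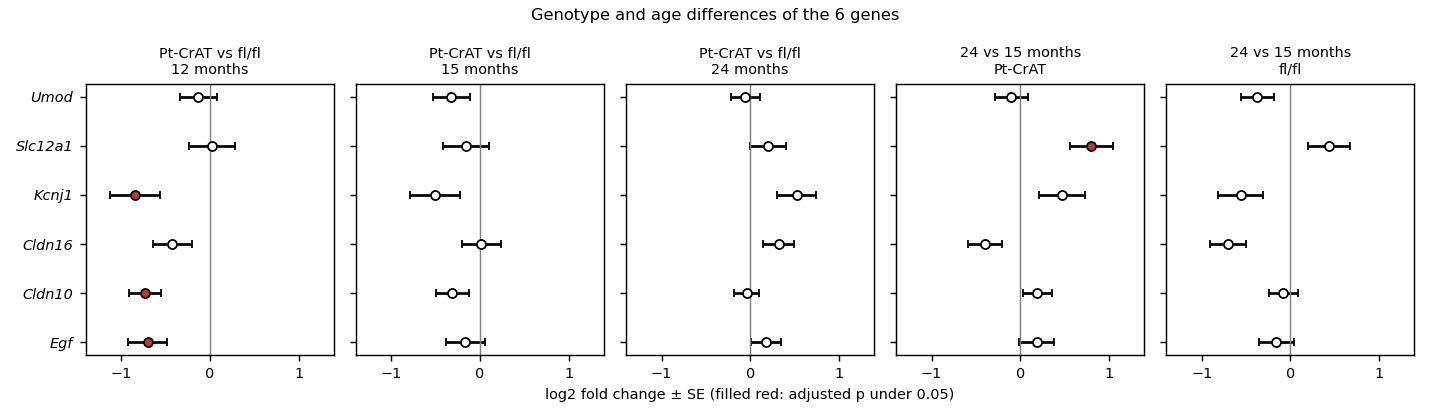
Log2 fold changes of the 6 genes from edgeR, Pt-CrAT over fl/fl at each age and 24 over 15 months in each genotype; points are estimates, bars are ± SE, and filled points had an adjusted p under 0.05. Filled points are Kcnj1, Cldn10 and Egf at 12 months and Slc12a1 for age in Pt-CrAT; Kcnj1 runs from -0.85 to 0.52 across the 3 genotype panels.

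With age, Slc12a1 rose in Pt-CrAT kidneys. It had 2281 ± 700.1 CPM in the 24-month libraries and 1307 ± 302 CPM in the 15-month libraries labelled Pt-CrAT (SD, n = 5 and 3), a log2 fold change of 0.80 ± 0.24 (SE; edgeR adjusted p = 0.0341), where 5.61% of all genes were called higher, 5.71% lower and 11.3% in either direction. The groups overlapped, since CrAT15Mchow183 with 1656 CPM lay above the lowest 24-month library, and the exact two-sided permutation test gave p = 0.0714. In fl/fl, Slc12a1 had 1982 ± 383 CPM at 24 months and 1461 ± 188 CPM at 15 months (SD, n = 5 and 3), a log2 fold change of 0.44 ± 0.24 (SE; edgeR adjusted p = 0.28). The age differences of the genotypes were not shown to differ: the difference of the log2 fold changes was 0.36 ± 0.33 (SE; edgeR adjusted p = 0.576). These age differences use the same libraries as the genotype differences at 15 and 24 months.

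The Slc12a1 call in Pt-CrAT did not hold without the pair of libraries that stood apart in Kap (log2 fold change 0.58, edgeR adjusted p = 0.195). With 1 library left out it was lost without CrAT15Mchow185 (adjusted p = 0.167), CrAT15Mchow204 (0.162), CrAT24Mchow123 (0.0899), CrAT24Mchow136 (0.0531) or CrAT24Mchow146 (0.0538). In a fit of the Pt-CrAT libraries of these ages alone the fold change was 0.82 and the adjusted p 0.0507.

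None of the other genes passed with age in either genotype. In fl/fl, where 1.3% of all genes were called and 0.478% were called lower, Cldn16 had 4.40 to 6.79 CPM (median 4.82) at 24 months and 7.22, 8.07 and 9.41 CPM at 15 months. Every 24-month library lay below every 15-month one, as for 8.26% of all genes (8.7% lay wholly above), and the exact two-sided permutation test gave p = 0.0179, the smallest that 5 against 3 libraries allow. Its log2 fold change was -0.70 ± 0.20 (SE; edgeR adjusted p = 0.0683; DESeq2 adjusted p = 0.0276). In Pt-CrAT, Cldn16 had 4.45 to 8.31 CPM (median 6.61) at 24 months and 7.68, 8.21 and 9.06 CPM at 15 months, with overlap and a log2 fold change of -0.40 ± 0.20 (SE; edgeR adjusted p = 0.189).

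Umod had log2 fold changes with age of -0.10 ± 0.19 in Pt-CrAT and -0.37 ± 0.19 in fl/fl (SE; edgeR adjusted p = 0.767 and 0.245). Kcnj1 had a log2 fold change of 0.47 ± 0.26 in Pt-CrAT and -0.56 ± 0.25 in fl/fl (SE; edgeR adjusted p = 0.238 and 0.199). The difference between these, 1.03 ± 0.36 (SE; edgeR adjusted p = 0.29), did not pass. edgeR called 0 genes in that test (0%), with 2255 at an unadjusted p under 0.05. At an adjusted p under 0.05, DESeq2 called 23. The log2 fold change with age was 0.19 ± 0.16 in Pt-CrAT and -0.08 ± 0.16 in fl/fl for Cldn10, and 0.19 ± 0.20 in Pt-CrAT and -0.16 ± 0.20 in fl/fl for Egf (SE).

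The number of Slc12a1 reads per Umod read compares these genes within each library and needs no scaling between libraries. It was looked at after the values had been seen and is given without a test. In Pt-CrAT it was 7.65, 4, 3.22, 2.68 and 4.14 at 24 months, against 2.21, 2.20 and 2.09 at 15 months in the libraries labelled so. In fl/fl it was 3.14, 4.30, 2.70, 3.73 and 3.19 at 24 months, against 2.32, 1.93 and 1.68 at 15 months. In both genotypes every 24-month library lay above every 15-month library, also with CrAT24Mchow123 and CrAT24Mchow136 left aside. The mean log2 ratio was higher at 24 than at 15 months by 0.90 in Pt-CrAT and by 0.78 in fl/fl.

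**Figure D3:**
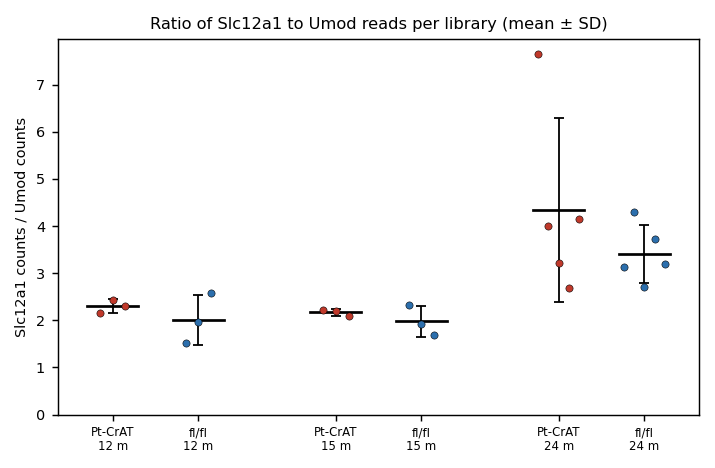
Slc12a1 counts divided by Umod counts in each library, by genotype and age; points are libraries, red for Pt-CrAT and blue for fl/fl, and bars give the mean ± SD. The 24-month libraries lie at 2.68 or above and the 15-month libraries at 2.32 or below.

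The ratio of Slc12a1 to Cldn16 reads separated the ages in the same way, with 262 to 630.1 at 24 months and 123.8 to 216 at 15 months in Pt-CrAT, and 244 to 542 at 24 months and 141 to 232 at 15 months in fl/fl. Against Kcnj1, Cldn10 and Egf the ratio separated the ages in fl/fl and overlapped in Pt-CrAT. In fl/fl the lowest 24-month and highest 15-month ratios were 31.4 and 26.7 for Kcnj1, 14.51 and 14.44 for Cldn10, and 11.3 and 10.95 for Egf. For Egf the ratio ran from 11.3 to 20.8 at 24 months and from 8.16 to 11.6 at 15 months in Pt-CrAT. All these ratios share the Slc12a1 reads. How often ratios of other gene pairs separate these ages was not determined. Of single genes, 17% had ages that did not overlap in fl/fl and 21.8% in Pt-CrAT. At 12 months the Slc12a1 to Umod ratio was 2.15, 2.44 and 2.30 in Pt-CrAT libraries and 1.51, 1.96 and 2.57 in fl/fl libraries, with overlap.

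Other genes of the thick ascending limb gave the context, with 20 of a list of 21 tested (Enox1 was not tested). At 12 months 1 of 20 rose in Pt-CrAT and 0 fell. The riser was Kcnj16, encoding the basolateral potassium channel subunit Kir5.1, with 1629 ± 145.7 CPM in Pt-CrAT and 1212 ± 132 CPM in fl/fl (SD, n = 3 each; log2 fold change 0.43, edgeR adjusted p = 0.0455). The Kcnj16 reads of bulk cortex cannot be assigned to this segment alone. Irx1, an Iroquois transcription factor, had 25.3 ± 8.81 CPM in Pt-CrAT and 51.3 ± 15.0 CPM in fl/fl (log2 fold change -1.01, edgeR adjusted p = 0.0514). Bsnd, encoding the channel subunit barttin, had 17.0 ± 1.99 CPM in Pt-CrAT and 21.4 ± 2.01 CPM in fl/fl and did not pass. The list's median log2 fold change was -0.05. The call of Kcnj16 was lost when Wt12MLFD326, Wt12MLFD368, CrAT12MLFD328 or CrAT12MLFD337 was left out. The number that fell was 2 without CrAT12MLFD345 and 1 without Wt12MLFD327 or Wt12MLFD368.

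With age in Pt-CrAT, 5 of the 20 rose and 1 fell, and the median log2 fold change was 0.39, against 0.04 over all genes. Ptger3, the prostaglandin E2 receptor EP3, had 100.2 ± 25.7 CPM at 24 months and 42.8 ± 14.4 CPM at 15 months (log2 fold change 1.23, edgeR adjusted p = 0.00455). Cldn19, the partner of claudin-16, had 25.0 ± 6.66 CPM at 24 months and 12.8 ± 2.998 CPM at 15 months (0.96, adjusted p = 0.00568). Tmem207 had 17.5 ± 4.94 CPM at 24 months and 6.78 ± 2.53 CPM at 15 months (1.37, adjusted p = 0.0134). Ppp1r1b also rose (1.002, adjusted p = 0.0381), and Fxyd2, a subunit of the sodium pump that is found in most tubule segments, fell (-0.56, adjusted p = 0.0222). Cldn16 itself did not pass there. Without CrAT24Mchow123 and CrAT24Mchow136, 1 of the 20 rose and 0 fell, and with 1 library left out the number that rose was 1 without CrAT15Mchow185 or CrAT15Mchow204 and reached 7 without CrAT15Mchow183.

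In fl/fl none of the 20 passed with age and the median log2 fold change was -0.02. Genes that rose in Pt-CrAT had log2 fold changes of 0.71 for Ptger3 (edgeR adjusted p = 0.113), 0.50 for Cldn19 (0.169) and 0.76 for Tmem207 (0.188) there. None of the 20 passed between genotypes at 15 or 24 months. In the difference of the age differences 0 of 20 passed, so it was not shown that these genes changed differently with age in the genotypes.

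**Figure D4:**
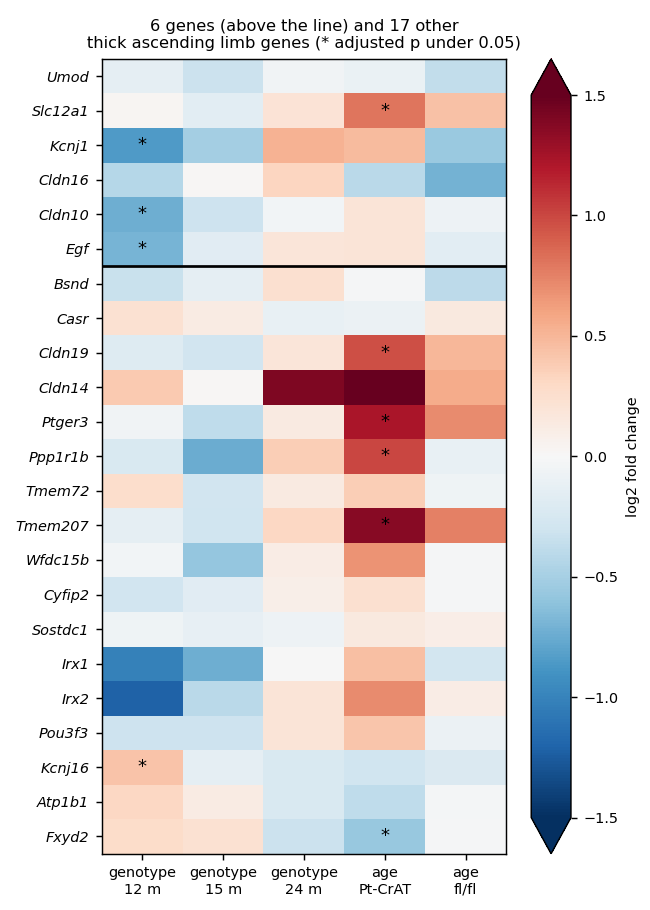
Log2 fold changes of the 6 genes (above the line) and of 17 of the 20 other thick ascending limb genes tested, Pt-CrAT over fl/fl at each age and 24 over 15 months in each genotype; red is higher and blue lower, the scale is clipped at 1.5, and asterisks mark an adjusted p under 0.05. Asterisks in the column of age in Pt-CrAT stand at Slc12a1 and 5 of the 6 other genes called there; the sixth is among the 3 genes not drawn. The column of age in fl/fl has none.

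Genes that act on the products of the 6 genes followed. Of 13 regulators of the NKCC2 cotransporter tested, Cul3, a ubiquitin ligase scaffold of the WNK kinase pathway, fell at 12 months (log2 fold change -0.75, edgeR adjusted p = 0.0255), and the kinase gene Wnk1 had 0.49 (adjusted p = 0.0547). Avpr2, the vasopressin V2 receptor, rose with age in Pt-CrAT (0.75, adjusted p = 0.0217) and had 0.35 in fl/fl (adjusted p = 0.303). Of 8 genes for uromodulin transcription and processing, Pdia6, an endoplasmic reticulum disulfide isomerase, fell at 12 months (-1.10, adjusted p = 0.0099). With age in Pt-CrAT 2 of the 8 fell, among them Hpn, encoding hepsin, the protease that releases uromodulin into the urine (-0.66, adjusted p = 0.0064). The Hpn reads of bulk cortex cannot be assigned to the thick ascending limb alone.

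Beside Egf, 12 genes of the EGF family, its receptors and its processing were tested. At 12 months Adam10 and Adam17, proteases that shed EGF family ligands, fell in Pt-CrAT (log2 fold changes -0.71 and -0.50, edgeR adjusted p = 0.0231 and 0.0346). The ligand gene Btc had 6.18 ± 2.41 CPM in Pt-CrAT and 2.88 ± 0.283 CPM in fl/fl (1.06, adjusted p = 0.0577). With age in Pt-CrAT, the neuregulin gene Nrg1 rose (0.80, adjusted p = 0.0496) and Nrg4 fell (-1.10, adjusted p = 0.043). No gene of the list passed in fl/fl with age or between genotypes at 15 and 24 months.

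Of 12 genes of calcium and magnesium handling, 3 fell at 12 months: the channel gene Trpm7 (log2 fold change -0.88, edgeR adjusted p = 0.0185), the magnesium transport gene Cnnm4 (-1.05, adjusted p = 0.0307) and Rragd (-0.54, adjusted p = 0.047), a GTPase gene mutated in a human magnesium-losing tubulopathy. With age in Pt-CrAT, Cldn19 and Tmem207 rose, as above, and Cnnm2 fell (-0.73, adjusted p = 0.0193). In fl/fl, Calb1, encoding the calcium-binding protein calbindin-D28k of the distal tubule, fell with age (-1.06, adjusted p = 0.0145). Of 11 other claudin genes tested, Cldn1 (-1.35, adjusted p = 0.0178) and Cldn12 (-0.45, adjusted p = 0.0247) fell at 12 months with Cldn10, while Cldn2, the cation pore of the proximal tubule, rose (0.56, adjusted p = 0.0381). Cldn15 rose with age in Pt-CrAT (1.01, adjusted p = 0.00457), as did Cldn19, and Cldn12 fell with age in fl/fl (-0.49, adjusted p = 0.0374).

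Other lists also held genes that rose with age in Pt-CrAT, as Slc12a1 did. Of 5 thin limb and inner medulla genes tested, all 5 rose with age in Pt-CrAT, among them Bst1 (log2 fold change 2.19, edgeR adjusted p = 0.00547), Slc4a11 (1.46, adjusted p = 0.0168) and Cryab (1.25, adjusted p = 0.0158); Upk1b and Slc14a2 also rose but were read at few counts, and Slc14a2 had no read in 2 of 22 libraries. Their summed level was 94.8 to 203 CPM (median 152) at 24 months, against 36.1, 42.7 and 94.5 CPM at 15 months in the libraries labelled Pt-CrAT. In fl/fl it was 91.0 to 161 CPM (median 125) at 24 months, against 70.8, 108 and 129 CPM at 15 months, and none of the 5 passed. Of these fl/fl sums, Cryab alone had a mean of 96.8 CPM at 24 months and 82.7 CPM at 15 months. In Pt-CrAT, 1 of the 5 rose without CrAT24Mchow123 and CrAT24Mchow136, and 2 rose without CrAT15Mchow185 or CrAT15Mchow204.

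Of 12 collecting duct genes, Aqp2, the vasopressin-regulated water channel, rose with age in Pt-CrAT (1.42, edgeR adjusted p = 0.00555), as did Avpr2. Of 16 proximal tubule genes 8 fell, among them the glucose transporter gene Slc5a2 (-1.24, adjusted p = 0.000743) and the phosphate transporter gene Slc34a1 (-0.79, adjusted p = 0.00504); 4 fell without CrAT24Mchow123 and CrAT24Mchow136, and 3 without CrAT15Mchow185 or CrAT15Mchow204. In the distal convoluted tubule, which follows the thick ascending limb, Slc12a3, the gene of the thiazide-sensitive cotransporter, and Pvalb fell with age in Pt-CrAT (-0.61 and -1.28, adjusted p = 0.00691 and 0.0349). Of 6 genes of tubular injury tested, Lcn2, Havcr1, Cd44 and Vcam1 rose with age in Pt-CrAT, with log2 fold changes of 3.99, 2.47, 1.03 and 0.79. In fl/fl these genes had 2.08, 1.99, 0.45 and 0.60 (edgeR adjusted p = 0.0691, 0.0938, 0.394 and 0.0753), and in the difference of the age differences 0 of the 6 passed, so the genotypes were not shown to differ. Lcn2, Havcr1 and Cd44 were read at few counts, with lowest library counts of 1, 5 and 13. The highest summed injury level of the series, 240 CPM, was that of CrAT24Mchow136. Spp1, which is not among the injury genes named here, had the most reads in this sum, with 643 to 3310 counts per library. Of 7 macrophage genes, Adgre1 and Lyz2 rose with age in Pt-CrAT (1.58 and 1.19, adjusted p = 0.00893 and 0.0093) and had 0.68 and 0.65 in fl/fl (0.262 and 0.171). The summed macrophage level was 403 to 775 CPM at 24 months and 363 to 479.6 CPM at 15 months in Pt-CrAT. In fl/fl it was 395 to 647 CPM at 24 months and 336 to 341 CPM at 15 months. The part of these other segments, of the injury and of the macrophage genes in the Slc12a1 result was not tested.

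**Figure D5:**
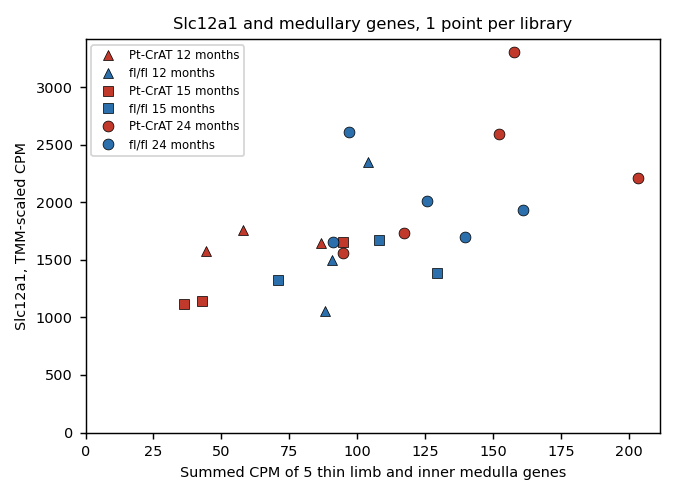
Slc12a1 CPM against the summed CPM of 5 thin limb and inner medulla genes, 1 point per library, red for Pt-CrAT and blue for fl/fl, with triangles for 12, squares for 15 and circles for 24 months. The highest Slc12a1 level, 3303 CPM, stands at a sum of 157.7 CPM, the highest sum of 203 CPM at 2209.9 CPM of Slc12a1, and the fl/fl library with 2612 CPM of Slc12a1 at a sum of 96.7 CPM.

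Across the 22 libraries the correlation of log2 levels with the thin limb and inner medulla sum was 0.63 for Slc12a1, and 0.44 after the 6 group means were subtracted. After that subtraction Slc12a1 had 0.65 with the macrophage sum, 0.53 with the sum of other claudins and 0.515 with the collecting duct sum, each higher than with the thin limb and inner medulla sum. With the thin limb and inner medulla sum it was 0.65 for Kcnj1, 0.60 for Umod, 0.365 for Cldn10, 0.05 for Egf and -0.14 for Cldn16. With the tubular injury sum it was 0.65 for Cldn10 and 0.62 for Kcnj1, and with the macrophage sum -0.67 for Egf and -0.52 for Cldn10. With the sum of other claudins it was -0.75 for Cldn10. The largest of all was 0.81, for Egf with the sum of the genes listed beside it. That sum also holds Errfi1, Adam10 and Adam17, which are neither EGF family ligands nor their receptors. In fl/fl at 15 months Errfi1 and Adam17 had means of 94.3 and 70.5 CPM, in a mean sum of 401 CPM. With the summed proximal tubule genes the correlation was -0.62 for Kcnj1, -0.46 for Egf and between -0.26 and 0.06 for the other genes. These are descriptions over 22 libraries, chosen after those of all 16 lists had been seen. Both values of a point come from the same library and its scaling. Sums are weighted towards genes with many reads. In the injury sum, Spp1 had 643 to 3310 counts per library, against 216 to 942 for Vcam1, the next. In the sum of other claudins, Cldn2 had 4591 to 27556 counts per library, against 583 to 2889 for Cldn12, the next.

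The 6 genes did not form 1 block. After the group means were subtracted, the closest pair over the 22 libraries was Kcnj1 with Cldn10 (Pearson r = 0.695), and r was 0.66 without the 2 libraries farthest in Kcnj1. Umod and Kcnj1 had r = 0.52, and 0.23 without CrAT24Mchow136 and Wt15Mchow205, and Umod and Slc12a1 had r = 0.38. Slc12a1 and Cldn10 had r = -0.49. Cldn10 and Egf had r = 0.20, and 0.63 without Wt24Mchow154 and Wt24Mchow145. Egf and Cldn16 had an r between -0.16 and 0.29 with each of the other genes.

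Among 9345 genes with a mean of at least 5 CPM, the 3 whose levels were most like each gene within groups were found by the same r over 22 libraries. For Slc12a1 they were Bcam (0.89), Nccrp1 (0.89) and Sort1 (0.89). For Kcnj1 they included Ampd3 (0.93) and Pdlim5 (0.92), and r was 0.86 and 0.88 for these without CrAT24Mchow136 and Wt24Mchow145. For Umod they were Cxcl12 (0.845), Mbp (0.83) and Pou3f3 (0.82), the last a transcription factor gene of the thick ascending limb list. For Cldn10 they included Cstf2t (0.95) and Rragc (0.93), for Egf they were Prrc2b (0.92), Rbm5 (0.90) and Slc6a6 (0.895), and for Cldn16 Cptp (0.76), Gsta3 (0.73) and B3galnt1 (0.70).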

How the data were processed

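The authors deposited raw read counts of 16556 genes in 22 libraries and, beside them, a normalized signal (counts over 1 size factor a library). The signal was used for gene symbols and to check those factors. TRIzol extraction and the QuantSeq 3′ FWD library kit are given per the labels' protocols; GRCm38, R 3.4.3 and DESeq2 1.18.1 are named in the submitters' processing notes. Aligner, counting tool and strand setting remain not given in the sources used here. The smallest total of any gene was 66 counts, so genes with few reads are not in the table.

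The counts were fitted with edgeR 4.0.16 (R 4.3.3): TMM scaling, filterByExpr, and 1 robust quasi-likelihood model of 6 groups with 16 residual degrees of freedom. In each of 8 contrasts, p-values were adjusted by Benjamini-Hochberg across 15064 genes, with a threshold of 0.05; no p was adjusted over a list. Members of 16 gene lists and the 6 genes were chosen with earlier results of these data known. Named genes are the 6, up to 4 per described list with the smallest p, the 3 closest in level to each of the 6, Crat and Kap; Ppp1r1b, Fxyd2, Bsnd, Slc14a2 and Lep fall outside this rule and were named after their values were seen. Some genes that the rule names are not reported here. Levels are mean ± SD. DESeq2 1.42.0, RLE scaling, no filter, fewer libraries and leave-one-out fits were alternatives, and the fit was tested on simulated data. Within groups, all 32 library pairs differed beyond sampling noise (chi-square over degrees of freedom from 9.43 to 123), so each library counted as 1 sample. Reads have no molecular identifiers, so precision rests on the spread between libraries, with a biological coefficient of variation of 20.5%; p-values measure the spread between these samples, and no label says that they came from separate litters or days.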

Additional observations from a re-analysis of the deposited data

Results flagged for a closer look

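In the Pt-CrAT group of 24 months, Kcnj1 in library CrAT24Mchow136 stood apart, with 110.4 CPM against 44.2 to 58.2 CPM in the other 4 libraries. The gap to its neighbour was 0.788 of the group's range, past Dixon's critical value of 0.71 for 5 samples. The same library was low in Kap. In fl/fl at 24 months, Cldn16 in library Wt24Mchow164 stood apart with 6.79 CPM, against 4.40 to 4.82 CPM in the other libraries, at a gap of 0.822 of the range. Of 12 groups of 5 libraries checked, chance alone puts about 1 in 20 past this value.

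The genotype difference of Kcnj1 differed between the 3 settings by the test of that variation (edgeR adjusted p = 0.0438). Pt-CrAT was below fl/fl at 12 months and above it on average at 24 months. Age and the diet word both change between these ages, and the test cannot tell them apart.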

How the results depend on the processing

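No paired analysis was possible because the groups share no replicate number. At 12 months the number of the 6 genes called, 3, was 0 in a fit of those libraries alone and without CrAT12MLFD328 and Wt12MLFD326, and 0 to 3 with 1 library left out. With age in Pt-CrAT it was 1, and 0 in a fit of those libraries alone and without CrAT24Mchow123 and CrAT24Mchow136, and 0 to 1 with 1 library left out. In DESeq2 1 of the 6 (Cldn16) was called with age in fl/fl and 1 (Cldn10) in the mean of the settings, for which leave-one-out fits called 0 to 1. For the variation among settings it was 1, 0 without either pair, and 0 to 2 with 1 library left out.

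The number of all genes called moved as follows. At 12 months it was 2464, against 19 without the 12-month pair, 1 with those libraries alone and 53 to 3513 with 1 left out. At 15 months it was 0, against 4 with those libraries alone, and at 24 months 0, against 15 in DESeq2 and 0 to 2 with 1 left out. The mean had 4, against 2 and 1 without the 12- and 24-month pairs, 249 in DESeq2 and 1 to 262 with 1 left out. The variation had 764, against 2 and 30 without these pairs, 2439 in DESeq2 and 2 to 2195 with 1 left out. Age in Pt-CrAT had 1705, against 417 without the pair and 393 to 1777 with 1 left out. Age in fl/fl had 196, against 426 without the pair, 755 in DESeq2 and 3 to 756 with 1 left out. The difference of the age differences had 0, against 23 in DESeq2.

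The sign of small log2 fold changes turned for Slc12a1 without the pairs, to -0.17 at 12 months, -0.0252 at 24 months and -0.0438 and -0.0491 in the mean. With 1 library left out it turned within -0.21 to 0.39 for Slc12a1 at 12 months and -0.0567 to 0.14 in the mean, -0.16 to 0.0645 for Cldn10 at 24 months and -0.18 to 0.0403 with age in fl/fl, -0.0875 to 0.12 for Cldn16 at 15 months and -0.082 to 0.014 in the mean, and -0.24 to 0.0315 for Umod at 24 months and -0.29 to 0.0827 with age in Pt-CrAT. None of these was called, and the cause was not tested. Cldn16 had the fewest reads of the 6 genes, 57 to 302 counts per library.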
